A study of Homo sapiens and Mus musculus with 20 samples.

Results

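The cytosolic ribosomal protein genes were examined in 16 lists of enriched regions from chromatin immunoprecipitation (ChIP) of human multiple myeloma cell lines. They were taken as the protein-coding genes of chromosomes 1 to 22 whose symbols are RPL or RPS with a number and an optional A, L or X, together with RPLP0, RPLP1, RPLP2 and RPSA. The kinases named RPS6K and symbols ending in L1, L2 or L3 were left out. This gave 77 of the 19126 protein-coding genes, 46 of the large and 31 of the small ribosomal subunit. They lay on 20 chromosomes, 12 of them on chromosome 19, and the rule uses symbols and chromosomes only.

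ARP1, a multiple myeloma line, was profiled in 3 genotypes of KDM6A, a demethylase of histone H3 lysine 27. They were wild type (WT), knock out (KO), and a line labelled JmjD-dead, after the demethylase domain of the enzyme, with H1146E in its titles. Acetylation (H3K27ac) and trimethylation (H3K27me3) of lysine 27 and input DNA were profiled in all 3, and monomethylation of lysine 4 (H3K4me1) in WT and KO. A KDM6A antibody was used on ARP1 WT and KO cells and on KARPAS, a line labelled multiple myeloma and KDM6A wild type. An HA antibody, which binds an epitope tag, was used on 2 ARP1 samples. One is labelled wild type and its title names no tag (the WT HA list). The other has a title that gives an HA tag and a genotype given as knock out (the tagged HA list). The labels say neither how the tag was added nor whether each genotype is 1 clone, and region lists cannot check the genotype itself. Each list came from 1 library, so differences between lists could not be checked against replicates, no test was possible, and the 95% intervals (exact Clopper-Pearson) cover counting error only.

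Ribosomal proteins are made in nearly every cell in matched amounts, and their genes are among the most strongly transcribed by RNA polymerase II. Most of their transcripts begin within a run of pyrimidines, the terminal oligopyrimidine (TOP) tract, through which the mTOR pathway controls their translation. H3K27ac marks active promoters and enhancers, H3K4me1 enhancers and the flanks of promoters, and H3K27me3 is laid down by Polycomb repressive complex 2 at silenced genes. KDM6A removes H3K27me3 and is a subunit of the complexes that methylate lysine 4 at enhancers.

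The sequence around the start of 5 genes is shown because the results turn on them: RPL32 had the best ranked H3K27ac region of the class in all 3 genotypes, RPS10, RPS19 and RPS9 held H3K27me3 regions in all 3 genotypes, and RPL10L had no region in any list. Each runs 5′ to 3′ on the gene's strand from 70 bases before the RefSeq start to 20 bases from it onward (GRCh38.p14). Capitals mark a run of C and T that reaches within 5 bases of the start, and CCGGAAG, a sequence bound by ETS family factors.
RPL32, chr3:12841546-12841635, minus strand: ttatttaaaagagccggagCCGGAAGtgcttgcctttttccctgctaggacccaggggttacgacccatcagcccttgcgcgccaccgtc
RPS10, chr6:34426050-34426139, minus strand: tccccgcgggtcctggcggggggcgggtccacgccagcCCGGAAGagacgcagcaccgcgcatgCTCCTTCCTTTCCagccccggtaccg
RPS19, chr19:41860185-41860274, plus strand: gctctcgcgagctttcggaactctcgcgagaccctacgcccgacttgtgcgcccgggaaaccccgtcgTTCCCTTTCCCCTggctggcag
RPS9, chr19:54200788-54200877, plus strand: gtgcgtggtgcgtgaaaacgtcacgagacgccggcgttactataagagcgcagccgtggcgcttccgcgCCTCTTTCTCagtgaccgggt
RPL10L, chr14:46651762-46651851, minus strand: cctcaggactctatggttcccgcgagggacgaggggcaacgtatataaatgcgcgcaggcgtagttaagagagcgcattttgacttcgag

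Of the 77 genes, 60 matched a RefSeq promoter of 250 bases before to 50 after the start, and 15101 protein-coding genes did in all. A run of at least 8 pyrimidines at the start was found in 45 of the 60 (75%) and in 11.3% of all promoters, and one of at least 6 in 48 (80%) against 22.2%. CTTTCC on the gene's strand within 30 bases of the start, which can overlap the run, was found in 18 (30%) against 2.8%. CCGGAAG on either strand was in 21 (35%) against 14.4% of all. AAGATGGC on either strand, the core bound by YY1, was in 6 (10%) against 3.91%. TATAAA on the gene's strand 40 to 20 bases before the start was in 3 (5%) against 3.69%. RPS10 carried both a 13-base run and CCGGAAG, RPS19 a 13-base run and RPS9 a 10-base run, while RPL32 held CCGGAAG and no run of at least 6 at the listed start. The matches describe letters in this window and not bound sites. The genes were short, with a median length of 5011 bp (772 to 27723) against 24476.5 bp for all protein-coding genes, and 27 of them (35.1%) held an annotated small nucleolar RNA, against 2.64% of all.

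The lists rested on unequal depth. After the authors' filtering the H3K27ac libraries held 25.6 to 31.2 M fragments (M is 1000000), the H3K27me3 libraries 5.03 (WT), 6.6 (KO) and 10.4 (JmjD-dead) M, and the H3K4me1 libraries 34 (WT) and 25.6 (KO) M. The inputs held 0.223 to 0.725 M. Tags numbered 16.6 M in the WT and 25.3 M in the tagged HA library, and 11.9 M (WT), 20.2 M (KO) and 37.4 M (KARPAS) in the KDM6A libraries. The 8 plasma cell markers fixed for the check of the cell type all held H3K27ac in WT, with a median rank of 1.39% of the list. Of 9 markers of other cells 4 did (CD2, CD3E, COL1A1 and KDR), at a median rank of 53.9%, and the other 5 held none.

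All ribosomal protein genes but RPL10L held H3K27ac within 2.5 kb of either gene end, 76 of 77 (98.7%, 93 to 100) in each genotype. The background was 62.3% (WT), 64.4% (KO) and 62.3% (JmjD-dead) of all protein-coding genes. Of genes with an H3K27ac region in WT, none of the 76 lost it in KO (0%, upper bound 4.74%) against 1.88% of all. None lost it in JmjD-dead (upper bound 4.74%) against 2.74%, and the bound lies above both shares. Other genes weighted to the members' deciles of WT H3K27ac rank also held a region in 99.9% in KO and in JmjD-dead. In the poorest decile, with 0 members, these shares were 84.4% and 75.7%. RPL10L, an intronless paralog of RPL10 known from testis, gained none in either, against 8.74% of all unmarked genes in KO and 4.69% in JmjD-dead. The same 76 genes were acetylated in all 3 genotypes.

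**Figure D1:**
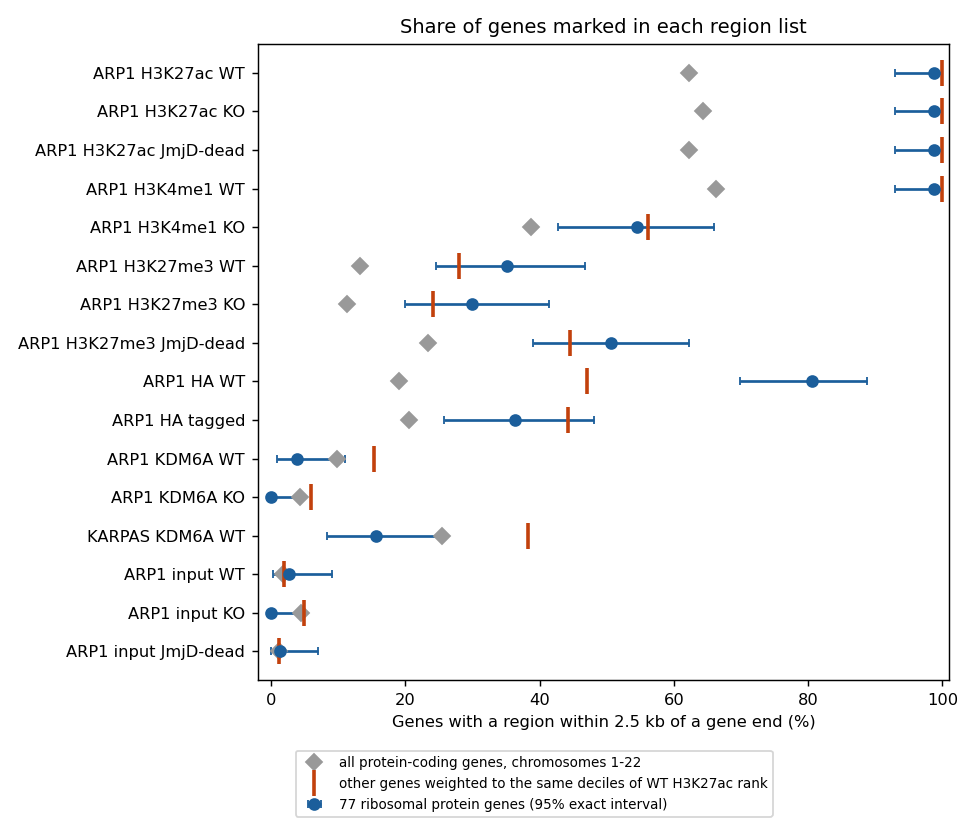
Percent of genes (x axis) marked at a gene end, within 2.5 kb, in each of the 16 lists (y axis). Blue points are the 77 ribosomal protein genes with their exact 95% interval, grey diamonds all protein-coding genes, and orange bars the other genes weighted to the same deciles of WT H3K27ac rank. The WT HA list shows the blue point farthest above its orange bar (80.5% against 47%). In the 3 KDM6A lists and the KO input list the blue interval ends below the bar.

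The regions were also strong and broad. A gene's best region was ranked in its own list by the authors' −log10 q, which orders regions as their pileup does, and the rank is given as a percent of the list length, so that a low percent is a strong region. The median rank was 2.97% in WT (0.265 to 21.1), 2.33% in KO (0.0925 to 12.6) and 2.16% in JmjD-dead (0.177 to 19.1), against 10.9%, 9.34% and 10.2% for all genes with a region. In WT 50 of the 76 lay in the best 5% of the list and 70 in the best 10%, in KO 58 and 69, and in JmjD-dead 53 and 69. Of all marked genes 25.4%, 30.3% and 27.6% lay in the best 5%. The median pileup, the number of fragments stacked at the summit, was 172.5 (WT), 148.5 (KO) and 176 (JmjD-dead) against 89, 78 and 85 for all marked genes. Their median fold over the library's mean coverage was 64.6, 62.1 and 69.6 against 33.5, 32.8 and 33.8. The median width was 3128.5, 3501 and 3406 bp against 1899, 1952 and 1807 bp. H3K27ac covered a median 36.6% (WT), 46% (KO) and 43.1% (JmjD-dead) of the span from 2.5 kb before to 2.5 kb after the gene. Over all marked genes, which are longer, it covered 7.92%, 8.33% and 7.7%.

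**Figure D2:**
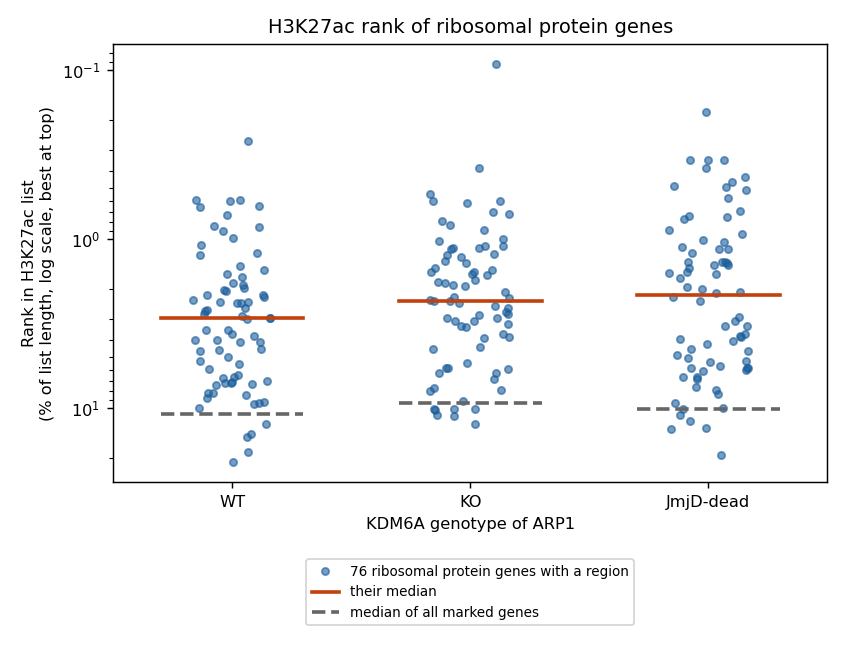
Rank of the best H3K27ac region at each of 76 ribosomal protein genes (y axis, percent of list length, log scale, best at the top) in the WT, KO and JmjD-dead lines (x axis). Points are genes, orange lines their medians (2.97, 2.33 and 2.16%) and dashed lines the medians of all marked genes (10.9, 9.34 and 10.2%). Most genes lie above the dashed line in each genotype.

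The order of the genes within the class was much the same in the 3 genotypes. Spearman's rho between the H3K27ac ranks of the 76 genes was 0.91 for the pair WT and KO, 0.93 for WT and JmjD-dead, and 0.9 for KO and JmjD-dead, given as descriptions over genes that share their libraries. Among the best 10 of each genotype 7 were common to all: RPL13A, RPL23A, RPL27A, RPL28, RPL32, RPS10 and RPS27. The best region of RPL28 lay past the far end of the gene and did not cover its start. Its summit was 22031 (WT), 22691 (KO) and 22656 bp (JmjD-dead) downstream of the start. RPL32, a large-subunit protein, led the class in every H3K27ac list, with pileups of 351 (WT), 347 (KO) and 352 (JmjD-dead), ranks of 0.265%, 0.0925% and 0.177%, and regions of 4598, 5673 and 4797 bp. RPL27A stood at 0.589, 0.7 and 0.344% with pileups of 285, 207 and 294 in the same order, and RPS27 at 0.589, 0.603 and 0.382%. RPL23A had the broadest of these regions, 10422 bp in WT at 0.598%, which also reached the neighbouring genes RAB34 and TLCD1. RPS10, which sits at the head of the small subunit and is ubiquitinated on stalled ribosomes, stood at 0.644, 0.546 and 0.434%.

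At the other end of the class were RPL26, RPS24, RPS27L, RPS7 and RPL3L. RPL26 stood at 12.5% in WT (pileup 80), 10.2% in KO and 10.1% in JmjD-dead, and RPS24, whose loss causes a form of Diamond-Blackfan anaemia, at 14.3, 11.3 and 7.91%. RPS7 stood at 18.3% in WT with a pileup of 55, 11% in KO and 13.4% in JmjD-dead. In WT these 5 ranked below the median of all marked genes (10.9%), with RPS27L at 15% and RPL3L at 21.1%. The 4 symbols ending in L are paralogs of other members or of X-linked genes. RPS27L, a paralog of RPS27, stood at 15, 7.7 and 12% in WT, KO and JmjD-dead. RPL3L, the striated-muscle paralog of RPL3, had the poorest rank in WT (21.1%) and JmjD-dead (19.1%) and stood at 7.99% in KO, where RPL5 was poorest at 12.6%, and its region (chr16:1941728-1943960 in WT) also lay at an end of MSRB1. RPL39L stood at 5.54, 5.92 and 8.35% with pileups of 133, 102 and 97. RPL10L was the only member with no region in any of the 16 lists.

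Genes of particular roles were spread through the order. The stalk proteins, which recruit elongation factors to the large subunit, ranked close together: RPLP0 stood at 2.04, 2.26 and 1.37% in WT, KO and JmjD-dead, RPLP1 at 2.15, 2.41 and 2%, and RPLP2 at 2.65, 2.06 and 1.16%. RPL5 and RPL11, which bind MDM2 when ribosome assembly is disturbed, ranked lower than these in each genotype, RPL5 at 10.1, 12.6 and 9.44% and RPL11 at 7.35, 5.8 and 6.82%. RPS6, the substrate of the S6 kinases, stood at 7.25, 6.26 and 5.84%, and RPSA, also known as the laminin receptor, at 9.28, 6.74 and 10.2%. The 31 small-subunit genes all held H3K27ac, as did 45 of the 46 large-subunit genes.

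**Figure D3:**
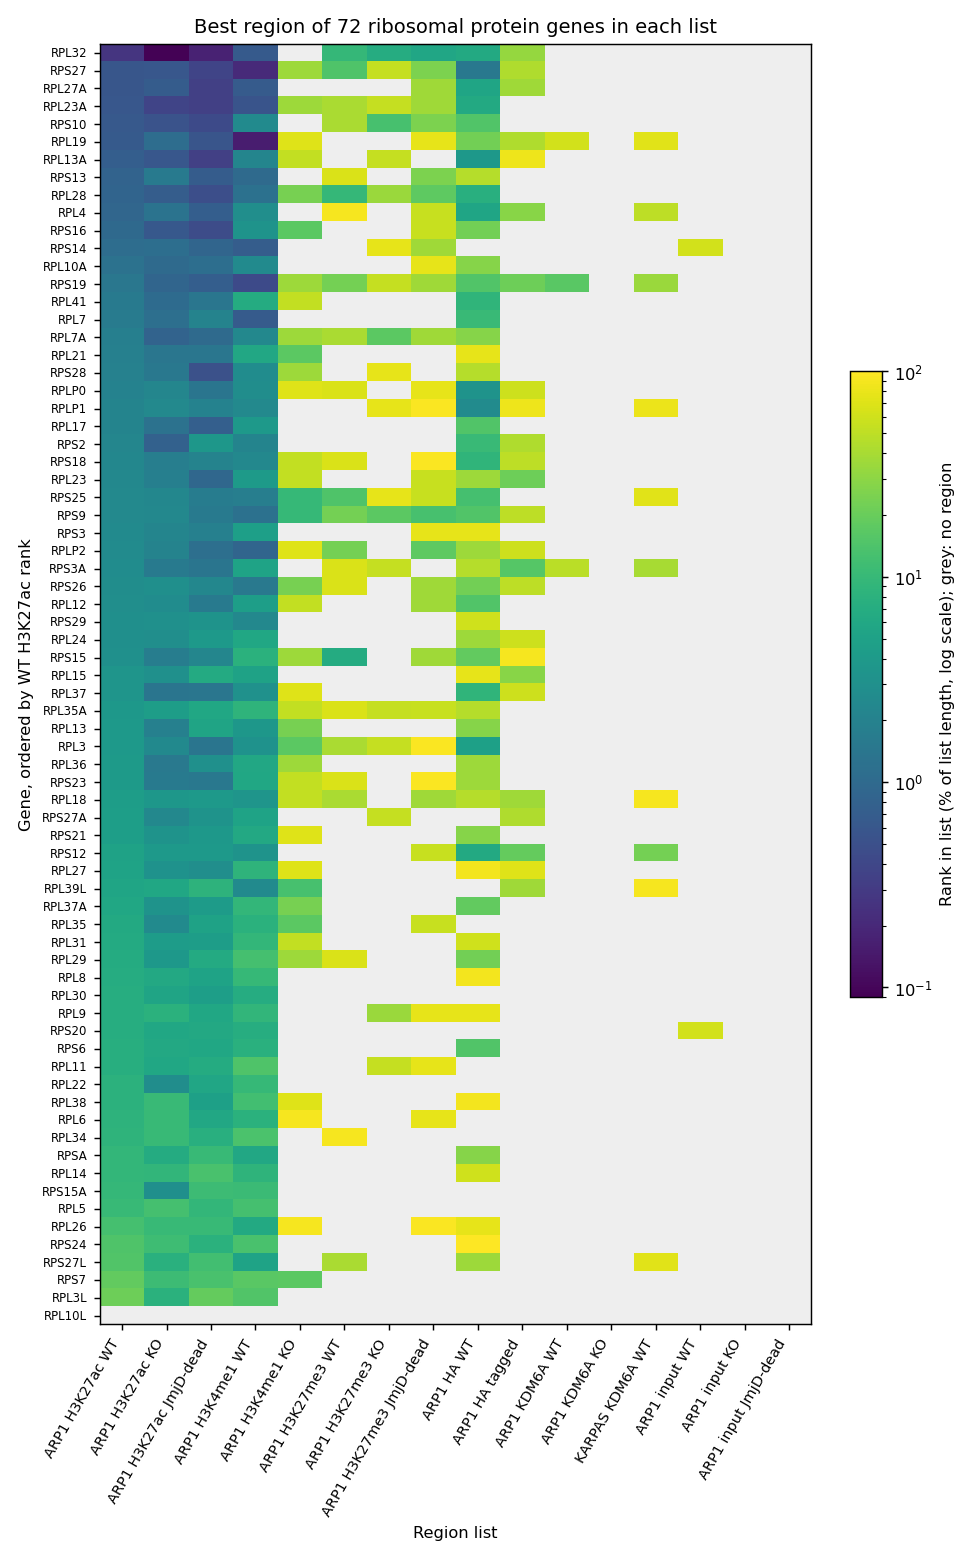
Best region of 72 of the 77 ribosomal protein genes (rows, ordered by WT H3K27ac rank) in each of the 16 lists (columns), coloured by rank as a percent of list length on a log scale, with grey for no region. The H3K27ac and WT H3K4me1 columns are filled except for RPL10L at the bottom, and mostly grow lighter down the rows. H3K27me3 and HA regions are mostly paler and scattered, and the KDM6A and input columns are almost empty.

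Other genes of protein synthesis gave a comparison by counts. All 30 translation factors and partners held H3K27ac in WT, led by EIF3B, EEF1G and EIF4A2, with a median of 3.88% and 19 in the best 5% of the list. So did all 28 ribosome assembly genes, led by UBTF, NOP16 and NOP58, at 7.87% with 8 in the best 5%. All 77 mitochondrial ribosomal protein genes did too, at 7.14% with 28 in the best 5%. Of 391 olfactory receptor genes, a silent class, 8 (2.05%) held a region. The ribosomal protein genes and the translation factors therefore had the lowest median ranks among these groups in WT.

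H3K4me1 in WT followed H3K27ac. It was listed at 76 of 77 genes (98.7%, 93 to 100) against a background of 66.2%, at a median rank of 4.2% against 8.1% for all marked genes, a median pileup of 107.5 and a median width of 2589.5 bp. RPL19 (0.157%, pileup 266), RPS27 (0.206%, pileup 248) and RPS19 (0.436%, pileup 210) led. The WT ranks of the 2 marks had a Spearman's rho of 0.82 over the 76 genes, as a description.

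In KO cells 42 of the 77 (54.5%, 42.8 to 65.9) held an H3K4me1 region, against a background of 38.7% and 56.2% of other genes weighted to the same deciles of WT H3K27ac rank. Thus 34 of the 76 marked in WT held none in KO (44.7%, 33.3 to 56.6), close to the 50.5% of all genes marked in WT, and the 1 unmarked gene gained none, against 17.7% of all. Among the 34 were RPL5, RPL7, RPL8, RPL9, RPL10A, RPL11, RPL14, RPL15, RPL17, RPL22, RPL24, RPL27A, RPL30, RPL32, RPL34, RPL3L, RPL4, RPLP1, RPS2, RPS3, RPS3A, RPS6, RPS10, RPS12, RPS13, RPS14, RPS15A, RPS20, RPS24, RPS27A, RPS27L, RPS29 and RPSA. Where a region was listed in KO it was small: the median pileup was 9, the median width 190.5 bp and the median rank 35.7%, the same as for all genes marked in KO. The best ranked were RPS25 and RPS9, both at 10% with a pileup of 13. At RPS27 the pileup was 248 in WT and 9 in KO, and at RPS19 it was 210 and 9. The median pileup over all marked genes was likewise 75 in WT and 9 in KO, in libraries of 34 and 25.6 M fragments, and the cause was not tested. With only regions of −log10 q of at least 5, 10.4% of the class held a KO region.

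H3K27me3, the mark KDM6A removes, was found at some of the genes, with low pileups. WT cells held it at 27 of 77 (35.1%, 24.5 to 46.8) against a background of 13.3%, KO cells at 23 (29.9%, 20 to 41.4) against 11.3%, and JmjD-dead cells at 39 (50.6%, 39 to 62.2) against 23.4%. Other genes of like H3K27ac rank held it almost as often: weighted to the members' deciles of WT H3K27ac rank, the shares were 28%, 24.1% and 44.5%, all inside the members' intervals. The median pileup was 6, 7 and 7 fragments and the median rank 40.6, 53.4 and 55.2% in WT, KO and JmjD-dead, the same as for all genes with a region. No member reached the best 5% in any genotype. With only regions of −log10 q of at least 5 the shares of the class were 9.09, 11.7 and 6.49%, and with a window of 1 kb they were 14.3, 11.7 and 24.7%.

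RPL32 also led the class in H3K27me3 in KO and JmjD-dead cells. Its pileups were 9 in WT (rank 9.52%), 14 in KO (7%) and 15 in JmjD-dead (5.75%). The best in WT was RPS15 at 6.77% (pileup 10), with RPL28 and RPL32 at 9.52% and RPS27 at 14.3%. RPS15 had a region in JmjD-dead at 36.9% (pileup 8) and none in KO. In KO, RPS10 (13.1%, pileup 11), and RPS9 and RPL7A (both 17.2%, pileup 10) came next. In JmjD-dead RPS9 (13.1%, pileup 11) and RPLP2 and RPL28 (each 17.5%, pileup 10) followed.

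The genes changed membership between the H3K27me3 lists. Of the 27 in WT, 12 held none in KO (44.4%, 25.5 to 64.7; all genes 61.6%), and 8 of the 50 others gained one (16%, 7.17 to 29.1; all genes 7.15%). The 12 were RPL4, RPL18, RPL29, RPL34, RPLP0, RPLP2, RPS13, RPS15, RPS18, RPS23, RPS26 and RPS27L, and the 8 included RPL9, RPL11, RPL13A, RPLP1, RPS14, RPS27A and RPS28. In JmjD-dead 4 of the 27 held none (14.8%, 4.19 to 33.7; all genes 35.2%), namely RPL29, RPL34, RPS3A and RPS27L, and 16 of the 50 gained one (32%, 19.5 to 46.7; all genes 17%). The shares of all genes are not weighted to the members' H3K27ac rank. Both comparisons share the WT list, and the lists differed in length, with 37236 regions in JmjD-dead, 17355 in WT and 11865 in KO. With the 3 lists cut to the length of the shortest, 13% of the class was marked in JmjD-dead. None gained a region there, and the WT-marked genes that held none rose from 4 to 10. In JmjD-dead, gains therefore outnumbered losses in the full lists and losses outnumbered gains in the equal ones. KO went the opposite way, from 12 losses and 8 gains in the full lists to 7 losses and 10 gains in the equal ones. With only regions of −log10 q of at least 5, KO had 4 losses and 6 gains. The part that depth plays in these changes was not tested further.

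In all, 46 of the 77 held an H3K27me3 region in at least 1 genotype and 31 in none. The 14 that held one in all 3 (18.2%; all genes 4.35%) included RPL3, RPL7A, RPL23A, RPL28, RPL32, RPL35A, RPS9, RPS10, RPS19, RPS25 and RPS27. The share of all genes here is not weighted to the members' H3K27ac rank. Of the 12 genes on chromosome 19, 7 (WT), 8 (KO) and 9 (JmjD-dead) were marked, against 20, 15 and 30 of the 65 on other chromosomes. The chromosome as a whole also stood higher, at 20.4, 20.7 and 40% of its genes against 12.8, 10.6 and 22.1% elsewhere.

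The H3K27me3 regions lay beside the start and not on it. Where the strand was known, the best region covered the start in 0 of 23 (WT), 0 of 18 (KO) and 0 of 33 (JmjD-dead) genes, against 1.01, 2.97 and 1.42% of all genes with a region. Its summit lay a median 2268, 2322.5 and 1922 bp downstream of the start, against 1313, 1261 and 1302.5 bp for all. These distances are not like for like, since regions at either gene end counted and the members were shorter genes. Over all marked members the summit was inside the gene in 18 of 27 (WT), 20 of 23 (KO) and 28 of 39 (JmjD-dead). The same count was not made for all genes. In a gene of 5011 bp, the median of the class, the windows of 2.5 kb at both ends span nearly the whole gene. The summits of the best H3K27ac regions had medians of 312, 311 and 333 bp, and these regions covered the start in 55, 49 and 53 of 59 genes. At RPL32 the H3K27ac summit was 344 bp (WT), 368 bp (KO) and 435 bp (JmjD-dead) downstream of the start, and the H3K27me3 summit 2268, 2809 and 3536 bp. At RPS10 the acetylation summit was at 487, 391 and 487 bp and the methylation summit at 1636, 1672 and 1572 bp.

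Most of the H3K27me3 regions overlapped acetylated stretches. The best region overlapped an H3K27ac region of the same genotype in 21 of 27 WT genes (77.8%, 57.7 to 91.4; all genes 65.5%), 22 of 23 KO genes (95.7%, 78.1 to 99.9; all genes 77.6%) and 35 of 39 JmjD-dead genes (89.7%, 75.8 to 97.1; all genes 58.4%). The WT interval includes the share of all genes. All genes here include some with no H3K27ac region, while every member counted had one. H3K27ac also covered a larger median share of the members' span (36.6 to 46%) than of all marked genes (7.7 to 8.33%). The overlap was not compared at like H3K27ac rank. The best region lay wholly under H3K27ac in 15 (WT), 16 (KO) and 22 (JmjD-dead) genes and outside it in 6, 1 and 4. The gap between its summit and that of the best H3K27ac region had a median of 2144, 1957 and 1955 bp. Neither these counts nor the gaps were computed for all genes. RPS9 shows that the best region need not be at the same end: in KO and WT its H3K27me3 summit was 8771 and 7546 bp downstream of the start, past the far end of the gene, and in JmjD-dead 1773 bp. A list of regions from a population of cells does not show whether both marks were on the same chromosomes.

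**Figure D4:**
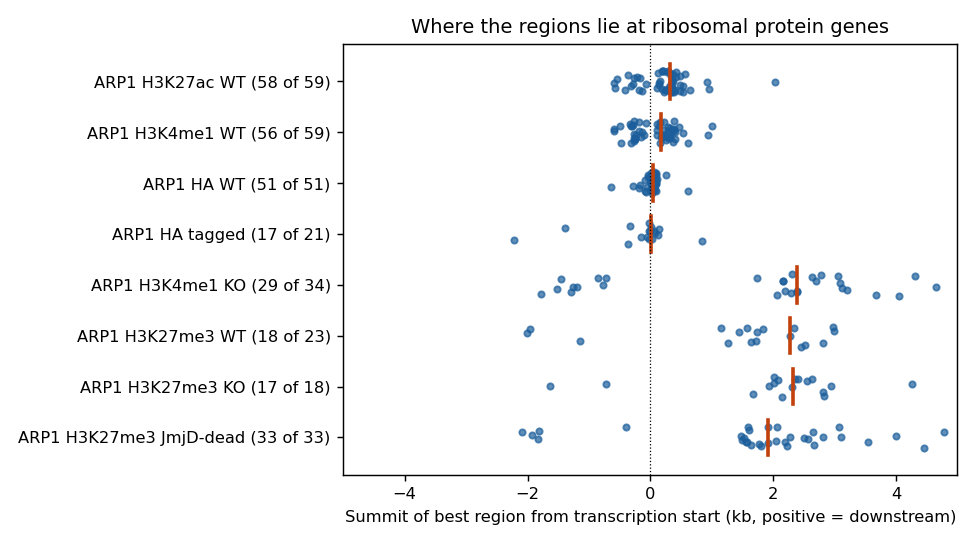
Distance of the summit of the best region from the RefSeq transcription start (x axis, kb, positive downstream) in 8 lists (y axis, with the number of genes inside the plotted range of those with a known strand). Points are genes and orange bars the medians. WT HA summits cluster at the start, H3K27ac and WT H3K4me1 summits flank it, and H3K27me3 and KO H3K4me1 summits leave it empty.

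Input regions were nearly absent. They were listed at 2 genes in WT, RPS14 and RPS20 (2.6%, 0.316 to 9.07; background 1.73%), and at 0 of 77 in KO (0 to 4.68; background 4.45%). In JmjD-dead they were listed at 1 gene (1.3%, 0.0329 to 7.02; background 1.1%). Other genes weighted to the members' deciles of WT H3K27ac rank held one in 1.91% (WT), 4.87% (KO) and 1.21% (JmjD-dead). The weighted KO share lay just above the members' interval. In any genotype 3 genes of the class held an input region, 3.9% against 6.84% of all. Each had a pileup of 2 fragments, and no gene had an input region in all 3 genotypes. No best H3K27me3 region of the class overlapped an input region of its genotype, against 1.06, 2.96 and 0.804% of all. The inputs were shallow, so enrichment in input below this depth was not detectable.

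The HA antibody listed most of the class in cells whose title names no tag. The WT HA list held 62 of 77 genes (80.5%, 69.9 to 88.7), 36 of 46 large-subunit and 26 of 31 small-subunit, against a background of 19.1% and against 47% of other genes weighted to the same H3K27ac ranks. The tagged HA list held 28 (36.4%, 25.7 to 48.1) against a background of 20.6% and a weighted 44.2%. With only regions of −log10 q of at least 5 the shares were 57.1% (WT HA) and 22.1% (tagged HA), and with equal list lengths the WT HA share was 68.8%. The difference was present in the strongest genes: in the best decile of WT H3K27ac rank 17 of 18 members were in the WT HA list against 71.8% of the others, and in the second decile 25 of 25 against 51.3%. In the tagged list these were 8 of 18 against 66.8% and 15 of 25 against 47.5%. The tagged library was the deeper one (25.3 against 16.6 M tags) with the shorter list (54338 against 78725 regions).

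The regions of the WT HA list were narrow and centred on the start. Their median width was 371 bp, and the summit lay a median 42 bp downstream of the start, with quartiles at 7 and 70.5 bp. It was within 100 bp of the start in 44 of 51 genes (86.3%; all genes in the list 32.1%), and the region covered the start in 46 of 51 (90.2%; all 42.2%). In the tagged list the summit was within 100 bp in 9 of 21 (42.9%; all 10.4%) and the region covered the start in 12 of 21 (57.1%; all 20.1%). RPS27 was the best ranked in the WT list, at 1.49% with a pileup of 33, followed by RPLP1 (2.66%, pileup 27), RPLP0 (3.33%, pileup 25), RPL13A (3.77%, pileup 24) and RPL3 (4.86%, pileup 22). RPS27 stood at 42.8% in the tagged list with a pileup of 14, RPLP1 at 82.9% with 10, RPLP0 at 59.2% with 12, RPL13A at 82.9% with 10, and RPL3 had no region there. The median rank was 22.7% in the WT list against 46.2% for all marked genes, and 46.4% in the tagged list against 42.8%. Members with a WT HA region had a median WT H3K27ac rank of 2.61%, and the 15 without one 7.78%.

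**Figure D5:**
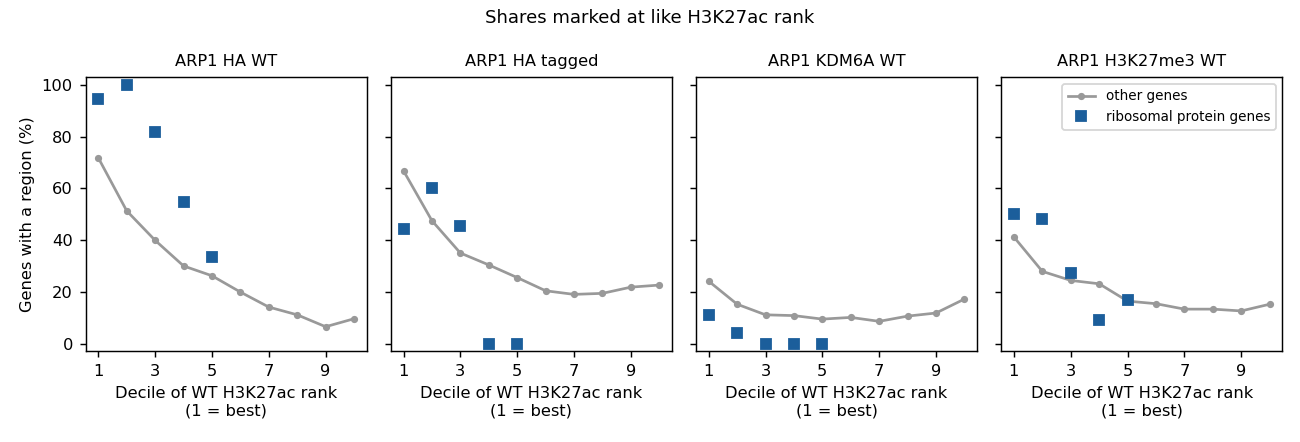
Percent of genes with a region (y axis) in 4 lists by decile of WT H3K27ac rank (x axis, 1 is best). Grey lines are other genes and blue squares ribosomal protein genes, drawn for deciles with at least 6 of them. In the WT HA list the squares of the best deciles lie above the line (17 of 18 and 25 of 25 genes against 71.8% and 51.3%), and in the KDM6A list below it.

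The 2 HA lists overlapped at 26 genes (33.8%; all genes 9.19%), in 20 of which the best regions themselves overlapped. A further 36 genes (46.8%; all genes 9.93%) were in the WT HA list alone and 2 (2.6%; all genes 11.4%), RPS27A and RPL39L, in the tagged list alone, with 13 in neither. By single regions, 47 genes held a WT HA region with no tagged region over it (61%, 49.2 to 72; all genes 15.2%). In the other direction 7 held a tagged region with no WT HA region over it (9.09%, 3.73 to 17.8; all genes 16.4%): RPL15, RPL32, RPL39L, RPS9, RPS12, RPS19 and RPS27A. Of the 30 translation factors 21 were in the WT HA list and 11 in the tagged list, and of the 77 mitochondrial ribosomal protein genes 32 and 20. Of 1892 pseudogenes of ribosomal protein genes 12 (0.634%) held a WT HA region in their body.

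The KDM6A antibody listed few of the genes. ARP1 WT cells held a region at 3 of 77 (3.9%, 0.811 to 11) against a background of 9.86% and a weighted 15.3% of other genes, and KO cells at 0 of 77 (0 to 4.68) against a background of 4.34% and a weighted 5.93%. KARPAS cells held one at 12 (15.6%, 8.32 to 25.6), against a background of 25.4% and a weighted 38.3%. In all 3 lists, KO included, the weighted share lay above the members' interval, as it did in the KO input list. The ARP1 WT share was 1.3% in lists of equal length and 13% with a window of 10 kb, where KARPAS reached 35.1%. Of the 18 members in the best decile of H3K27ac rank 2 held a KDM6A region in ARP1 WT, against 24.1% of the others, and 4 held one in KARPAS, against 49.5%. KARPAS was ranked here by the H3K27ac of ARP1, since no H3K27ac list of KARPAS was used here. Other genes of protein synthesis were listed about as rarely. In ARP1 WT these were 3 of 77 mitochondrial ribosomal protein genes (3.9%), 1 of 30 translation factors (3.33%) and 1 of 28 ribosome assembly genes (3.57%). In KO they were 1, 0 and 0, and in KARPAS 8 (10.4%), 5 (16.7%) and 4 (14.3%).

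The 3 genes were RPL19, RPS3A and RPS19, and none of their regions overlapped a KO region, which made them WT-only (3.9%; all genes 8.41%). At RPL19 the region had a pileup of 8 (rank 61.3%) and its summit at -325 bp from the start. At RPS3A, a small-subunit protein, the pileup was 9 (48.7%) and the summit at -453 bp. At RPS19, the gene most often mutated in Diamond-Blackfan anaemia, the pileup was 15 (16.6%) and the summit 11490 bp downstream of the start, at the other gene end. None covered a start. Each of the 3 also overlapped a KARPAS KDM6A region, a tagged HA region and a WT H3K27ac region, and RPL19's also overlapped the WT HA list, while those of RPS3A and RPS19 did not. RPS3A was also the best ranked member of the tagged HA list, at 15.7% with a pileup of 23 and a summit at -364 bp, against 46.2% and a pileup of 10 in the WT HA list, whose summit lay 12 bp into the gene.

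The 12 genes in KARPAS included RPL4, RPL18, RPL19, RPL39L, RPLP1, RPS3A, RPS12, RPS19, RPS25 and RPS27L. Their median rank was 61.9% against 39.5% for all marked genes, and 2 of 9 with a known strand covered the start (22.2%; all genes 10.2%). RPS12 stood at 23% with a pileup of 30, and RPS19 at 34.5% with 23.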

How the data were processed

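Lists of enriched regions from 16 human libraries were used, and 4 mouse lists were not used because the genes are defined on GRCh38. Per the submitters' processing notes, reads were handled with Bowtie2, Trimmomatic, MACS2 2.1.2, FastQC and MultiQC on GRCh38. Per the file headers, MACS 2.2.7.1 was run on input, H3K27ac and H3K27me3 and 2.1.1.20160309 on the others, on each library alone, without control or local background, at q 0.05. The fold of a region is therefore over the mean of its own library, and extra DNA copies raise it. For HA and KDM6A, single-end tags were extended to 200 bp. Per the file headers, the deposited regions carry the −log10 q-value, the −log10 p-value, the fold enrichment as a ratio and the pileup signal. These are the authors' values and were used only within a list.

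Rows with shared coordinates were merged into 1 region. A gene of the RefSeq GRCh38.p14 table counted as marked if 1 of its ends had a region no farther than 2.5 kb away. Its best region was that of highest −log10 q, then fold, and ties took their mean rank. Overlap needed 1 bp. A gene marked in WT only was lost, and one marked in the mutant only was gained. Shares of other genes were weighted to the members' deciles of WT H3K27ac rank. Intervals of shares, counts of 0 included, are exact Clopper-Pearson at 95%. With 1 library a group no test was run. The class and the lists were chosen for study with earlier results of these data known, although the rule for members reads no measured value. The genes named are the 5 best and 5 poorest by WT H3K27ac rank, the 5 best in each H3K27me3 list, those with H3K27me3 in all 3 genotypes, those whose state differed, those in the WT-only KDM6A and tagged-only HA sets, and symbols ending in L. Some genes these rules cover are not reported here by name, though the counts include them. Genes named for their role or HA, H3K4me1 or KARPAS rank were chosen after their values were seen. Alternatives were stricter q, equal list lengths, windows of 1 and 10 kb, starts only, regions on input left out, and members left out. Computations used scipy 1.17.1, pandas 2.3.3, numpy 2.4.6 and matplotlib 3.10.9 under Python 3.11.15, and the functions were tested on simulated data, where 5 of 5 steps returned the seeded answer.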

Additional observations from a re-analysis of the deposited data

How the results depend on the processing

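Of 309 values recomputed under another setting, 268 were unchanged or moved by at most 1.5 times, and 41 moved further. A move to or from 0 counted as further. All are given as a percent of all members in that setting, also losses and gains. In the full lists the losses and gains were 15.6 and 10.4 (KO H3K27me3), 5.19 and 20.8 (JmjD-dead H3K27me3) and 44.2 (H3K4me1 losses). The H3K27ac and WT H3K4me1 shares and the WT HA share were not among the 41. With −log10 q of at least 5, H3K27me3 fell to 9.09 (WT), 11.7 (KO) and 6.49 (JmjD-dead), KO H3K4me1 to 10.4, tagged HA to 22.1, KARPAS KDM6A to 7.79 and both the WT and JmjD-dead inputs to 0, while losses of H3K27me3 in KO were 5.19 (4 of the 7 genes then marked in WT), gains in JmjD-dead 2.6 and losses of H3K4me1 88.3. With equal list lengths JmjD-dead H3K27me3 was 13, WT KDM6A and its WT-only set 1.3 and WT input 0, H3K27me3 losses 9.09 in KO and 13 in JmjD-dead, and JmjD-dead gains 0. A window of 1 kb gave H3K27me3 14.3 (WT), 11.7 (KO) and 24.7 (JmjD-dead), KO losses 6.49 and gains 3.9, and KO H3K4me1 33.8. A window of 10 kb gave KDM6A 13 (WT and WT-only), 2.6 (KO) and 35.1 (KARPAS), tagged-only HA 22.1, and input 6.49 (WT), 3.9 (KO) and 3.9 (JmjD-dead). Starts alone gave 0 for the WT and JmjD-dead inputs, and 50% overlap gave 14.3 for tagged-only HA. In the 41 genes without a neighbouring gene end, KDM6A WT and WT-only were 7.32, input 4.88 (WT) and 2.44 (JmjD-dead), and JmjD-dead losses of H3K27me3 9.76. Without regions on input, 1.3 (RPS20, named after its value was seen) counted as losing H3K27ac in JmjD-dead. Its JmjD-dead region (chr8:56073385-56075327, pileup 115) overlapped the WT input region (chr8:56075252-56075469) and was therefore left out. Its WT H3K27ac region ended before that, at 56074536, and was kept. The cause of the other moves was not tested, beyond there being fewer regions or genes in the stricter settings. Ranking by fold or pileup gave the same order, and leaving out symbols ending in L moved no value past the limit of 1.5 times. Removal of regions on input could not be run for the input lists themselves. No paired analysis was possible because each group had 1 library and no value comes from a test. H3K27me3, at 5.03 to 10.4 M fragments and pileups of 6 or 7, and the inputs limit what could be detected.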

Other observations

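RPS19 was marked in 12 of the 16 lists and RPL10L in 0. Members with a WT H3K27me3 region had a median WT H3K27ac rank of 2.42%, against 4.56% for those without. Among genes outside the class in the best 2 deciles of WT H3K27ac rank, 43.4% of those on chromosome 19 held a WT H3K27me3 region, against 33.6% elsewhere. Spearman's rho between the WT H3K27ac and WT HA ranks was 0.55 over 62 members, and between WT H3K27ac and H3K27me3 0.28 over 27, as descriptions over genes that share libraries. Of 36 members with another coding gene end within 2.5 kb, a region could belong to either gene. Of 1892 ribosomal protein pseudogenes 58 (3.07%) held a WT H3K27ac region in their body, and 15 (0.793%) a WT KDM6A region.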
